A study of Rattus norvegicus with 13 samples.

Results

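Histones are the proteins around which nuclear DNA is wrapped, and the rat array carried probes for them under 39 gene symbols. The probes were chosen by name, from the symbols beginning with Hist and a digit, H1f, H2af or H3f, which gave 55 of the 45598 gene probes. They were then selected on detection, meaning a spot signal that the scanner software flags as well above background, in at least 6 of 13 animals. By this, 43 probes of 29 genes were compared between the groups, and 12 probes were not. The 43 comprised 26 probes of 21 replication-dependent genes and 17 probes of 8 variant genes. Of the 43 probes, 40 were detected on all 13 arrays. At the edge of the rule, the probes of H2afy2, H2afv (A_44_P1112941) and H2afy (A_44_P1114033) were detected on 6, 8 and 9 arrays, and those of H1foo, Hist1h2ai and Hist2h2ab were detected on 5 and fell just outside. The H2afy2 probe was detected in 5 KI and 1 control animals and the H2afy probe in 6 and 3.

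The animals were male Wistar rats whose mothers had received by gavage either KI (1 mg/kg) or 0.9% NaCl for 8 days from gestational day 9, up to day 16 by the methods and day 17 by the introduction. KI, potassium iodide, is the salt taken to block the thyroid against radioactive iodine. The thyroid was collected 30 days after weaning, and RNA of 6 KI-treated and 7 control animals was hybridised, each to its own one-colour Agilent array. The litters are not named in the labels, so the animals were treated as independent and the p-values measure the spread between these animals.

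The genes of the replication-dependent histones lie in clusters, have no introns and are transcribed mainly in S phase, when newly copied DNA has to be packed. Their mRNAs usually end in a conserved stem-loop in place of a poly(A) tail. The variant histones are mostly made throughout the cell cycle, from genes whose mRNAs are usually polyadenylated. The labelling kit primes on poly(A), so the array reads the polyadenylated share of an RNA. This is a limit above all for the replication-dependent genes. In whole thyroid tissue, fewer cells of a type and less RNA per cell cannot be told apart.

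The probes themselves show what each measurement can separate, and the sequences below are given for that purpose. The inner probe of Hist3h2ba, a replication-dependent H2B gene, and a probe of Hist1h2bl, an H2B gene of another cluster, matched at 56 of 58 aligned bases. Capitals mark the bases at which the aligned stretches differ.
Hist3h2ba inner probe (A_44_P1158674): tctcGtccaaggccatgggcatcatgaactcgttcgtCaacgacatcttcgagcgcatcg
Hist1h2bl probe (A_44_P1080474): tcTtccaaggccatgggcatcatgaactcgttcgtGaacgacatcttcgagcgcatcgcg

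The other Hist3h2ba probe lay near the 3′ end of the transcript, starting at base 559 of a gene that spans 630 bases in RefSeq (GRCr8), whereas the inner probe started at base 193. The longest run of bases it shared with any other probe of the array was 15, with a probe of Fbxo5. Its last stretch holds the polyadenylation signal AATAAA, as does that of Hist2h2be. The probes of Hist1h2bf and Hist2h2aa3 hold instead the histone stem-loop, so they cover the end at which these mRNAs are normally cut. Capitals mark the signal or the stem-loop.
Hist3h2ba 3′ probe (A_64_P043174), bases 31 to 60: taatggtacattAATAAAtttgtctggttc
Hist2h2be probe (A_44_P1092266), bases 30 to 59: gttattatcattAATAAAgttgccacttag
Hist1h2bf probe (A_44_P1098021), bases 31 to 60: taacccaaaGGCTCTTTTCAGAGCCaccta
Hist2h2aa3 probe (A_64_P004344), bases 2 to 31: aaaaaacGGCTCTTTTCAGAGCCacccaca

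The symbol and the sequence of one probe disagreed. The probe named Hist1h2ail1, an H2A gene by its symbol, matched the probe of Hist2h3c2, an H3 gene, at 40 of 44 aligned bases. It is counted with H2A below because the rule goes by symbol. Capitals again mark the differing bases.
Hist1h2ail1 probe (A_44_P1081430): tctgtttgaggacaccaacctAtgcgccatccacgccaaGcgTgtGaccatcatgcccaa
Hist2h3c2 probe (A_44_P1080550): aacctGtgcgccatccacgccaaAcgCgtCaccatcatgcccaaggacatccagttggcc

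The values of several matching probes moved together from animal to animal, though not in step with the share of matching bases. On the log2 scale, the difference between the inner Hist3h2ba probe and the Hist1h2bl probe had an SD of 0.0501 over the 13 animals. That between the identical pair of Hist3h3 probes had an SD of 0.0122. The SD was 0.232 for Hist1h2ail1 and Hist2h3c2, at 40 of 44 bases. For Hist1h2af and Hist1h2ak, at 50 of 57 bases, it was 0.0289. RNA of other H2B genes in the signal of the inner Hist3h2ba probe was not tested. The 3′ probe is the one that shares no long stretch with another probe of the array.

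All levels below are on a log2 scale on which 0 stands for the 75th percentile of an array's probes, and all differences are KI minus control on this scale. Across the array, none of the 25717 tested probes passed an adjusted p of 0.05 (limma with Benjamini-Hochberg adjustment), and 3271 (12.7%) had an unadjusted p under 0.05. The median difference of all tested probes was -0.08, and 60.7% of them lay below 0. The split depended on scaling, with 1469 higher and 1802 lower here, 1886 and 1359 in the deposited log2 values, 1736 and 1500 after quantile normalization, 1789 and 1109 with the percentile taken over spots, and 1166 and 3427 after normexp background correction. Between 34840 and 41050 of 58717 gene spots per array were well above background. Of 11 marker genes of thyroid follicular cells, 10 were detected, and Slc26a4 was not. The arrays of control 4 and control 6 had the lowest quality weights (0.168 and 0.252), and KI 1 stood apart in lymphocyte markers, with a mean deviation of 3.37 against -0.70 to 0.04 elsewhere.

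No histone probe passed the adjusted threshold, and the lowest adjusted p among them was 0.342 (limma). At an unadjusted p under 0.05, 3 of the 43 probes were lower in the KI-treated group, against 7.01% of all tested probes. No histone probe was higher, against 5.71% of all tested probes. The 3 were the Hist3h2ba 3′ probe, Hist1h1t and 1 probe of H2afv. In all, 34 of the 43 probes (79.1%) lay below 0, with a median of -0.16. Of the 43, 25 (58.1%) lay below 0 in the deposited log2 values, beside 52.0% of all tested probes there, with a median of -0.06. The reported counts are read against the 60.7% and the median of -0.08 over all tested probes, and several probes share their sequence, so they are not separate measurements.

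Markers of skeletal muscle, which borders the thyroid, were compared beside them. All 9 detected of 10 had differences below 0, with a median of -1.11, and only Actn3, a muscle actinin, had an unadjusted p under 0.05 (-1.74 ± 0.66, adjusted p = 0.366, limma). Their mean deviation per animal ran from -2.61 to 1.01 in KI and from -0.57 to 2.82 in control, and their summed linear level, relative to the 75th percentile, from 4.43 to 81.9 and from 22.7 to 192.7, so the groups overlapped. Myh2, the marker that was not compared, was detected on 5 arrays. Markers of lymphocytes, thymocytes, red cells, fat cells, parathyroid and C cells had medians of -0.36 to 0.35. The thymocyte median of -0.36 rested on 2 of 5 genes on the array, Cd1d1 and Arpp21, and the lymphocyte median of 0.35 on 5 of 13. The thymocyte markers Rag1, Rag2 and Dntt were not compared. They were detected in 1, 2 and 1 KI animals and in 0 control animals. The part of muscle RNA in the histone values was not tested.

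**Figure D1:**
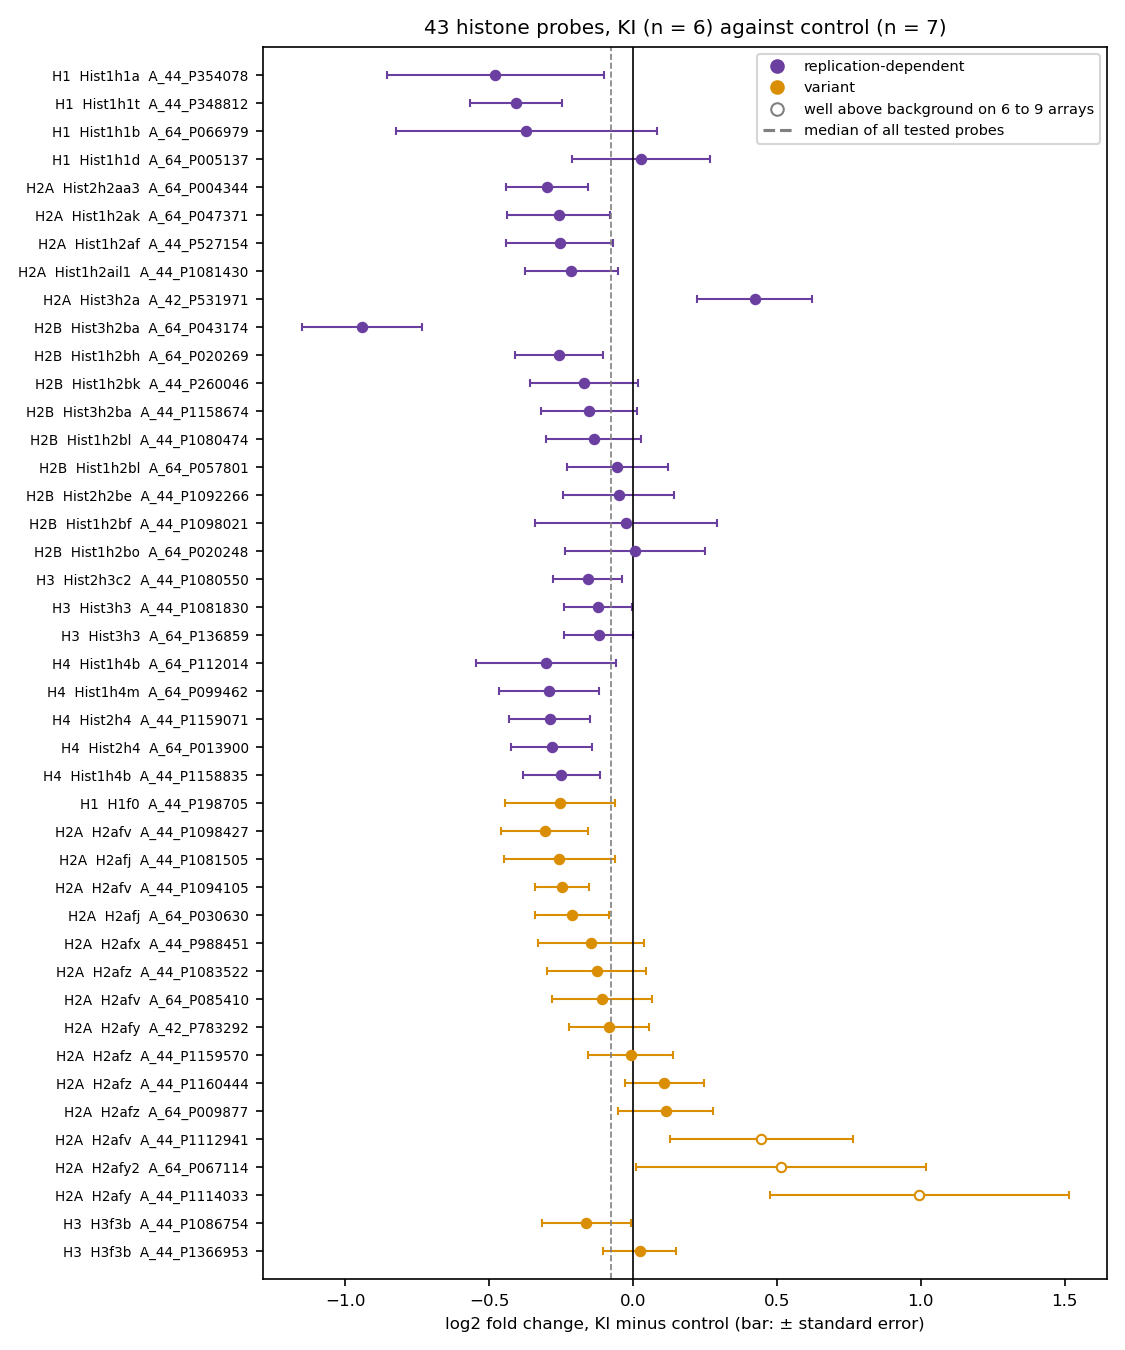
Log2 fold change (KI minus control, bar: ± standard error from limma) of the 43 histone probes, ordered by class and family, with the replication-dependent probes above and the variant probes below. The replication-dependent probes lie mostly left of 0, the Hist3h2ba 3′ probe lies farthest left at -0.94, and the open circles far right are probes detected on 6 to 9 arrays only.

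Hist3h2ba was the histone gene with the largest difference at a well detected probe. At its 3′ probe the KI-treated animals had levels of -0.52, -0.40, -0.05, 0.11, 0.21 and 0.43, with a median of 0.03. The control animals ran from 0.54 to 1.53, with a median of 0.68. The groups did not overlap, the highest KI animal being KI 4 and the lowest control animal control 1, and the 2 highest control animals were control 4 and control 6. Of all tested probes, 0.587% did not overlap and 0.327% did so with KI lower.

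The difference was -0.94 ± 0.21 (SE; 6 KI and 7 control animals), or 1.92-fold lower in the KI-treated group. Its unadjusted p was 0.00045 and its adjusted p 0.342 (limma), and 24 tested probes had a smaller p. The exact two-sided permutation test gave 0.000583, the smallest value that splits of 13 animals into 6 and 7 allow. This value goes with groups that do not overlap and adds little to that observation. Hist3h2ba is on the list of genes that the study drew from these same animals, so the value describes that choice and is no independent evidence. Because the groups did not overlap, the probe had to be lower in KI on every slide that held both groups. The same holds for every scan session, meaning the arrays with the same scan date. The difference ran from -1.93 to -0.31 on these 5 slides and from -1.66 to -0.28 in the 3 scan sessions. The only control animal on the slide at -1.93 was control 6, and those of the session at -1.66 were control 4 and control 6. Without control 4 and control 6 the difference was -0.70.

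The inner Hist3h2ba probe gave a different picture. Its KI levels ran from 2.28 to 3.16 with a median of 2.45, and its control levels from 2.26 to 3.02 with a median of 2.79. The groups overlapped throughout, with KI 4 the highest and control 1 the lowest of all animals. The difference was -0.15 ± 0.17 (SE; adjusted p = 0.634, limma), beside -0.14 ± 0.16 at the near-identical Hist1h2bl probe. The within-animal difference of the 3′ and the inner probe was -2.93 to -2.22 in KI and -2.35 to -1.14 in control. The change of the 3′ probe thus exceeded that of the inner probe by 0.79 on the log2 scale, which is given as a description, without a test.

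**Figure D2:**
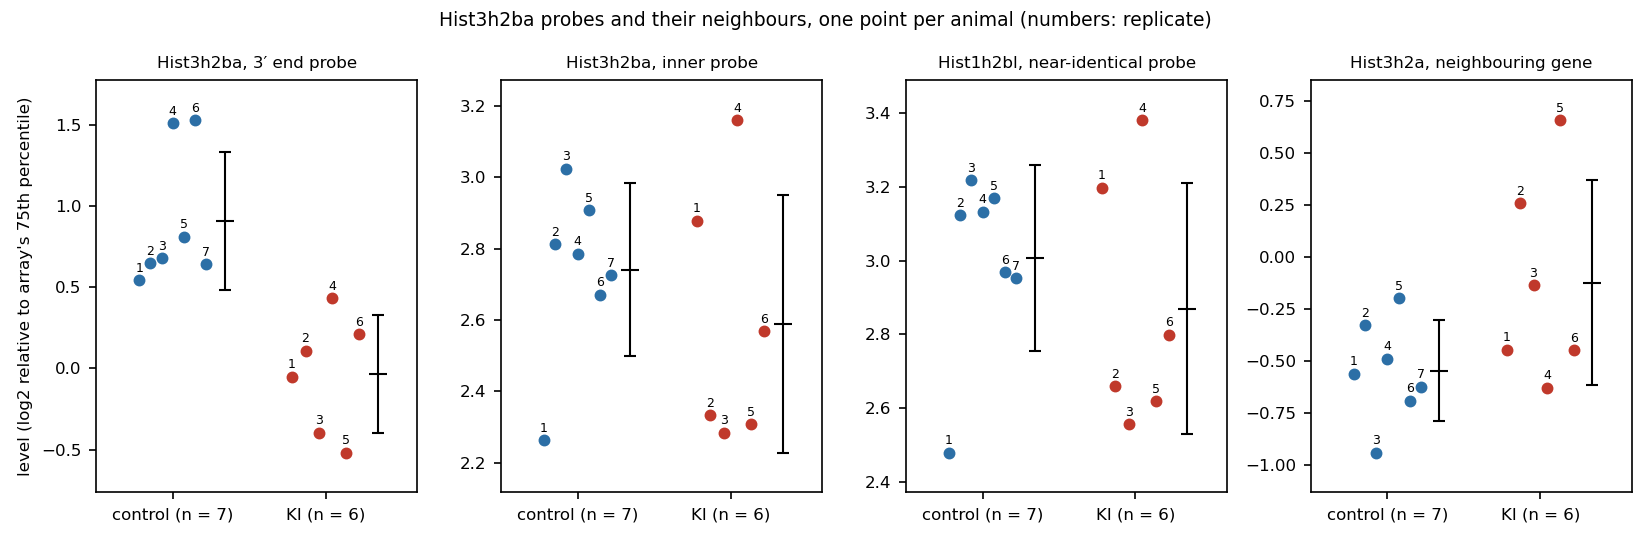
Levels (log2, with 0 at the array's 75th percentile) of both Hist3h2ba probes, the near-identical Hist1h2bl probe and the neighbouring gene Hist3h2a, one point per animal numbered by replicate, with mean ± SD beside each group. The groups separate at the 3′ probe only, and the inner Hist3h2ba probe and the Hist1h2bl probe show the same order of most animals.

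Hist3h2ba lies in a small cluster on chromosome 10, and its neighbours were compared with it. In GRCr8, RefSeq places Hist3h2ba at chr10:44225421-44226050 and the H2A gene Hist3h2a, now named H2ac25, at chr10:44233283-44234835. In the array's own annotation, which names the older build rn4, the 3′ probe lies at chr10:45238682-45238741. The probe of Hist3h2a, which starts at base 1444 of its transcript, ran from -0.63 to 0.66 in KI with a median of -0.29 and from -0.94 to -0.20 in control with a median of -0.56. The groups overlapped, with KI 5, KI 2 and KI 3 above every control animal. The difference was 0.42 ± 0.20 (SE; unadjusted p = 0.0521, adjusted p = 0.395, limma), the opposite sign to Hist3h2ba, and it was below 0 on 2 of 5 slides. The probe of Hist3h2bb, an H2B gene now named H2bu1, was detected in 2 KI animals and no control animal and was not compared.

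The stretch before the start of Hist3h2ba and the stretch between Hist3h2bb and Hist3h2a are shown because these genes share a cluster and their probes took opposite signs. The letters searched on both strands were CCAAT (the CCAAT box), the TATA box as TATAAA, and the octamer ATTTGCAT, and capitals mark their matches.
Hist3h2ba, chr10:44225171-44225420 (GRCr8, plus strand): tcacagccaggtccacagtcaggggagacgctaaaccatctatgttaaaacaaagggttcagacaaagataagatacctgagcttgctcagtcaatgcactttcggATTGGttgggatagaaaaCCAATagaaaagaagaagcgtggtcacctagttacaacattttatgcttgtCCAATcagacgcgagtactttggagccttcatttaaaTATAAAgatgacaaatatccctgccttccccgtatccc
Hist3h2a, chr10:44233066-44233282 (GRCr8, plus strand): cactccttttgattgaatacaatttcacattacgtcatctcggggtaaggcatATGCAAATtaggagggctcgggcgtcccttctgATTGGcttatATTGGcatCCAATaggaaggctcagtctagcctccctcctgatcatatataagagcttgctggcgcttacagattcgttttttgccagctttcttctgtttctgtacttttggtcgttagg

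The Hist3h2ba stretch held 3 matches of CCAAT and 1 of TATAAA, and the Hist3h2a stretch held 3 of CCAAT and 1 of ATTTGCAT. Over the 250 bases before the start, CCAAT was found in 24 of 26 replication-dependent genes (92.3%), in 7 of 11 variant genes (63.6%) and in 34.3% of 27457 promoters of the RefSeq table. ATTTGCAT, the octamer known from H2B promoters, was found in 9 of the 26 (34.6%) and in 1.5% of all, and TATAAA in 15 of the 26 (57.7%) and in 13.1% of all. No motif contains another. Of the 39 symbols, 38 matched a RefSeq gene and 37 had a promoter. A match describes the letters only.

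Among the replication-dependent genes as a class, 23 of 26 probes lay below 0, with a median difference of -0.23 and a range of -0.94 to 0.42, beside 60.7% of all tested probes below 0. In the deposited log2 values 18 of 26 lay below 0 with a median of -0.12, and after quantile normalization 21 of 26 with a median of -0.14. Of the 26, 2 had an unadjusted p under 0.05, both lower, a share near the 7.01% of all tested probes. None had an adjusted p under 0.05. The mean of the class per animal, taken as the deviation from each probe's mean, ran from -0.31 to 0.13 in KI and from -0.34 to 0.39 in control. The groups overlapped, and control 1 was the lowest and control 4 the highest of all animals. Control 4 was the highest animal at 19 of the 43 histone probes and control 1 the lowest at 15. Without control 4 and control 6 the median was -0.10, beside -0.01 for all tested probes. Without control 1, 12 of the 43 histone probes had an unadjusted p under 0.05 and a lower level in KI, against 2511 of all 25717 tested probes. The 12 include the identical pair of Hist2h4 probes and 2 probes each of H2afj and H2afv, so they are not separate measurements.

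**Figure D3:**
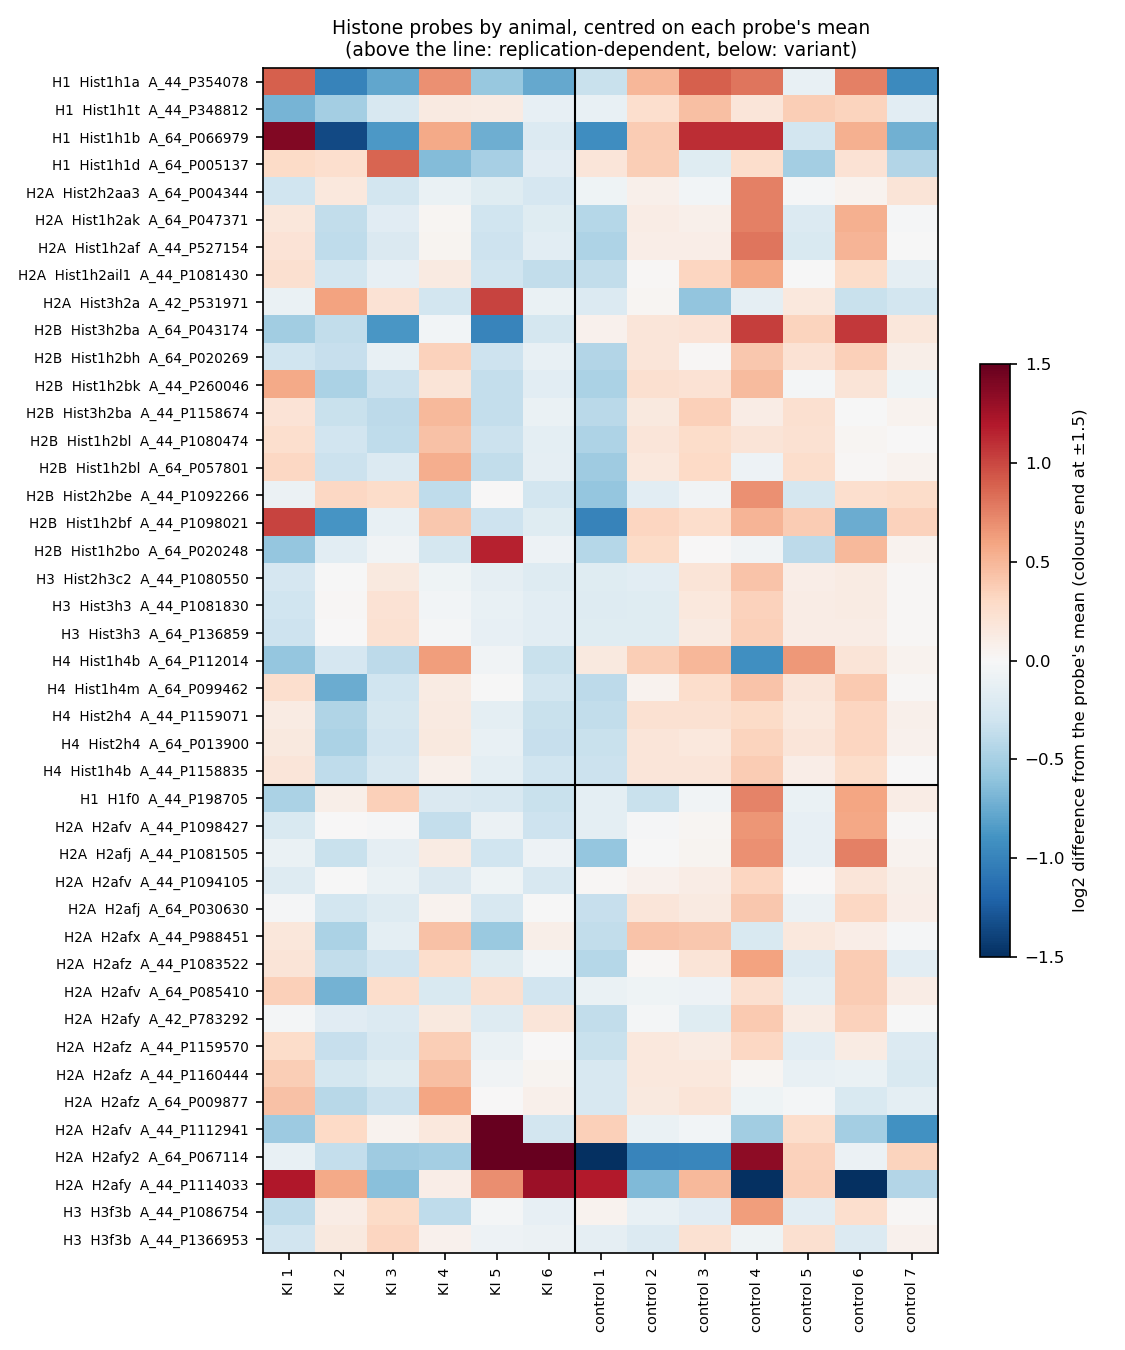
Levels of the 43 histone probes in the 13 animals as log2 differences from each probe's mean (red above, blue below, colours ending at ±1.5), with KI animals left and control animals right of the vertical line and replication-dependent probes above the horizontal one. Control 4 is red at most probes and control 1 and KI 2 are mostly blue, so animals of one group differ as widely as the groups do.

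The H4 genes encode the protein that pairs with H3 at the centre of the nucleosome. All 5 probes lay below 0, at -0.30 to -0.25, and this held for all 5 under each normalization tried. The brightest, a probe of Hist1h4b (A_44_P1158835), ran from 1.89 to 2.46 in KI with a median of 2.08 and from 1.95 to 2.65 in control with a median of 2.45. Most control animals lay above most KI animals, but the ranges overlapped. The difference was -0.25 ± 0.13 (SE; adjusted p = 0.423, limma). The pair of identical Hist2h4 probes gave -0.29 and -0.28, and they match this Hist1h4b probe at 43 of 46 aligned bases. The other Hist1h4b probe (A_64_P112014) gave -0.30 ± 0.24, with control 4 the lowest animal there, at -2.89.

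Among the replication-dependent families by symbol, the 3 H3 probes differed least between animals, with a range of 0.64 to 0.68 over the 13 animals. Of these 3, 2 are the identical Hist3h3 pair. The Hist1h2ail1 probe, which matches H3 by sequence, had a range of 0.96. A variant probe, H2afv (A_44_P1094105), ranged less, at 0.56. Hist2h3c2, the brightest, ran from 4.82 to 5.23 in KI and from 4.90 to 5.50 in control, with medians of 4.98 and 5.17. The groups overlapped, and the difference was -0.16 ± 0.12 (SE; adjusted p = 0.514, limma). The probes of Hist3h3, known as a testis form of H3, gave -0.12 at both copies. They match the Hist2h3c2 probe at 42 of 49 aligned bases, and RNA of other H3 genes in their signal was not tested. In the deposited log2 values the median of the 3 H3 probes was 0.01.

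Among the H2A genes, 4 of 5 probes lay below 0, and Hist3h2a was the one above. The brightest, Hist1h2ak, ran from 4.36 to 4.90 in KI with a median of 4.55 and from 4.31 to 5.49 in control with a median of 4.81. The groups overlapped, and the difference was -0.26 ± 0.18 (SE; adjusted p = 0.491, limma). The probe of Hist1h2af, which matches it at 50 of 57 aligned bases, gave the same value, -0.26. Without control 4 and control 6 the Hist1h2ak difference was -0.05. The stem-loop probe of Hist2h2aa3 gave -0.30 ± 0.14 (unadjusted p = 0.0518, adjusted p = 0.395, limma) and was below 0 on all 5 slides.

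The H2B genes other than Hist3h2ba had 7 probes, of which 6 lay below 0, with a median of -0.05 beside -0.08 for all tested probes. Of the 7, 3 lay below 0 in the deposited log2 values. The brightest was the Hist1h2bl probe printed above, which ran from 2.56 to 3.38 in KI and from 2.48 to 3.22 in control, with medians of 2.73 and 3.12. Control 1 was the lowest of all animals and KI 4 the highest, so the groups overlapped. The polyadenylation-signal probe of Hist2h2be gave -0.05 ± 0.19, and the stem-loop probe of Hist1h2bf gave -0.03 ± 0.32. Hist3h2ba was therefore the one H2B gene with a difference beyond -0.26.

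The linker histones of the H1 family bind the DNA between nucleosomes, and they varied more between animals than between groups. Hist1h1a ran from -2.63 to -0.74 in KI with a median of -2.30 and from -2.59 to -0.74 in control with a median of -1.14. Its difference of -0.48 ± 0.38 (SE; adjusted p = 0.530, limma) was within the spread. Hist1h1b ran from -3.34 to -0.60 in KI and from -2.92 to -0.87 in control, a range of 2.74 over all animals against a median of 1.11 for all tested probes. Its difference was -0.37 ± 0.45.

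At both probes a cut drawn after seeing the levels parted the animals into separate ranges, each holding both groups. At Hist1h1b, KI 1, control 4, control 3, KI 4, control 6 and control 2 lay between -1.60 and -0.60, and the other 7 between -3.34 and -2.19. A gap of similar width, from -1.42 to -0.88, lay inside the upper range. These same 6 animals lay between -1.14 and -0.74 at Hist1h1a, and the other 7 between -2.63 and -1.74. Over 34 genes of S phase and proliferation, the mean deviation per animal was 0.13 to 0.73 in those 6 and -0.60 to -0.08 in the other 7. The lymphocyte markers were high in KI 1 alone among them. The part of cell division in the levels of these H1 genes was not tested.

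**Figure D4:**
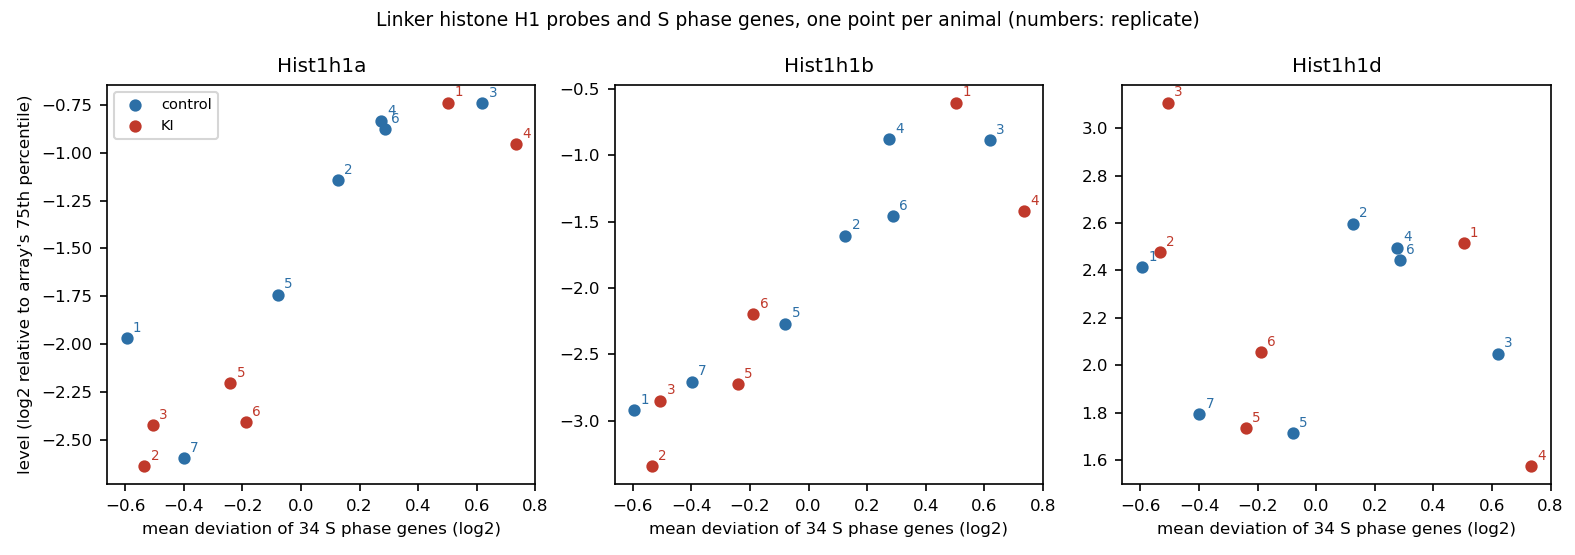
Levels of 3 linker histone probes (log2, with 0 at the array's 75th percentile) against the mean deviation of 34 S phase and proliferation genes in the same animal (log2), one point per animal numbered by replicate. Hist1h1a and Hist1h1b are high in the animals right of 0 and low in those left of it in both groups, and Hist1h1d, with KI 4 lowest and KI 3 highest, shows no such split.

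Hist1h1d, the brightest H1 probe of the clusters, did not share this split. It ran from 1.58 to 3.11 in KI and from 1.71 to 2.60 in control, with medians of 2.27 and 2.41. KI 4 was the lowest animal and KI 3 the highest, and the difference was 0.03 ± 0.24 (SE; adjusted p = 0.952, limma), a value that changed sign when slide, scan session or replicate number was added as a block.

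Hist1h1t, the testis form of H1, had the other low p of the class. It ran from -3.66 to -2.83 in KI with a median of -3.15 and from -3.12 to -2.51 in control with a median of -2.72. KI 1, KI 2 and KI 3 lay below every control animal, and the other KI animals lay within the control range. The difference was -0.41 ± 0.16 (SE; unadjusted p = 0.0228, adjusted p = 0.369, limma; exact permutation p = 0.0268), or 1.33-fold lower, and it was below 0 on 4 of 5 slides. It was -0.20 in the deposited log2 values (unadjusted p = 0.0736, limma). The unadjusted p was also above 0.05 with the percentile taken over spots, with scan session as a block, without control 4 and control 6 together (-0.38), without KI 1 (-0.31) and without KI 2 (-0.35), at 0.0542 to 0.0641 in limma. Of 6 germ cell markers, 4 were not compared. Tnp1, Tnp2 and Dazl were detected on no array. Ddx4 was detected in 3 KI and 1 control animals, with a mean of -3.77 in KI and -5.01 in control. Prm1 and Prm2, the sperm protamines that replace histones, were low, with Prm1 detected in 3 KI and 6 control animals and Prm2 in all, and gave differences of -0.77 ± 0.19 and -0.47 ± 0.19 (adjusted p = 0.342 and 0.376, limma). Prm1 passed the detection rule mainly through the control animals, where it was higher, so its difference is no support. The part of germ cell RNA in the Hist1h1t value was not tested.

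The variant histones were more mixed, with 11 of 17 probes below 0 and a median difference of -0.11, beside -0.08 for all tested probes. In the deposited log2 values the median was 0.02 and 7 of 17 lay below 0. The mean of the class per animal ran from -0.15 to 0.13 in KI and from -0.20 to 0.18 in control. The groups overlapped almost fully.

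H2afv, now named H2az2, encodes an H2A.Z form that replaces H2A at promoters, and its 4 probes disagreed. The probe A_44_P1094105 ran from 3.44 to 3.68 in KI with a median of 3.53 and from 3.68 to 3.998 in control with a median of 3.77. The groups did not overlap, but KI 2 and control 5 lay side by side at 3.68. The difference was -0.25 ± 0.09 (SE; unadjusted p = 0.0183, adjusted p = 0.363, limma), or 1.19-fold lower. Of all tested probes, 0.327% did not overlap with KI lower. The exact permutation test again gave its smallest value, 0.000583, which goes with groups that do not overlap. For the same reason the probe had to be below 0 on all 5 slides (-0.32 to -0.08). In the deposited log2 values the difference was -0.12 (unadjusted p = 0.114, limma), and the unadjusted p was also above 0.05 after quantile normalization, with the percentile over spots and with replicate number as a block.

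The brighter H2afv probe (A_44_P1098427) gave -0.31 ± 0.15 (adjusted p = 0.404, limma), with overlapping ranges of 5.07 to 5.44 in KI and 5.28 to 6.09 in control. Without control 4 and control 6 it was -0.12. The 2 dim probes gave -0.11 ± 0.17 and, at the probe detected on 8 arrays, 0.45 ± 0.32. Over the gene, then, the 2 bright probes were below 0 and the dimmest above it.

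H2afz, now H2az1, encodes the other H2A.Z form. Its 4 probes gave -0.13, -0.01, 0.11 and 0.11, none beyond its SE of 0.14 to 0.17. The pair at 0.11 match at 57 of 60 bases, and capitals mark where they differ.
H2afz probe (A_44_P1160444): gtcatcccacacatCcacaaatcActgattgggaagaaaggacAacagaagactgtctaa
H2afz probe (A_64_P009877): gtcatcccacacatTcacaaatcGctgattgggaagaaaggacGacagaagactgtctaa
The probe at -0.01 (A_44_P1159570) changed sign under 8 of 13 processing alternatives, so it has no direction here. Its levels ran from 3.26 to 3.97 in KI and from 3.27 to 3.92 in control.

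The remaining variants overlapped between the groups. H2afj, an H2A variant that differs from H2A mainly at its tail, gave -0.26 ± 0.19 and -0.21 ± 0.13 at its probes (adjusted p = 0.516 and 0.450, limma). The first of these (A_44_P1081505) was -0.01 without control 4 and control 6, -0.16 without control 4 alone and -0.15 without control 6 alone. H2afx, the H2A.X form that is phosphorylated at DNA breaks, gave -0.15 ± 0.18, with levels of -2.06 to -1.05 in KI and -1.86 to -1.07 in control. H1f0, the linker histone of resting and differentiated cells, ran from 3.71 to 4.55 in KI and from 3.85 to 4.93 in control and gave -0.25 ± 0.19. Without control 4 and control 6 the H1f0 difference was -0.03, and control 4 was its highest animal.

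H3f3b encodes H3.3, the variant deposited outside replication. Its brighter probe ran from 6.73 to 7.40 in KI with a median of 7.04 and from 6.95 to 7.74 in control with a median of 7.14, and gave -0.16 ± 0.16 (adjusted p = 0.591, limma). The other probe gave 0.02 ± 0.13. Both lay above 0 in the deposited log2 values, at 0.02 and 0.15, so no direction can be given for the gene.

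The macroH2A genes carry a large extra domain and are found on silent chromatin. The bright probe of H2afy, now Macroh2a1, ran from 3.52 to 3.90 in KI and from 3.35 to 4.11 in control and gave -0.08 ± 0.14 (adjusted p = 0.75, limma). Its dim probe gave 0.996 ± 0.52 (unadjusted p = 0.075, adjusted p = 0.414, limma), with levels of -4.40 to -2.48 in KI and -6.11 to -2.58 in control. This difference was 0.08 with normexp background correction. H2afy2, now Macroh2a2, gave 0.51 ± 0.50, and -0.04 with normexp background correction. The dim H2afy probe (6 KI and 3 control animals) and the H2afy2 probe (5 and 1) passed the detection rule mainly through KI. Their differences and the p-value are therefore no support for a higher level in KI.

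Proteins that make, store and place histones were compared by lists, with the brightest probe per gene. Of 16 detected genes of histone mRNA processing, 2 (12.5%) were higher and 0 lower at an unadjusted p under 0.05, against 5.71% and 7.01% of all tested probes. Lsm10, a subunit of the U7 particle that cuts histone mRNA, gave 0.62 ± 0.27 (adjusted p = 0.382, limma). Its levels were -0.04 to 0.18 in KI with a median of 0.07, and -1.91 to -0.06 in control with a median of -0.23. The groups thus did not overlap, as at 0.587% of all tested probes. The SD was 0.71 in control against 0.08 in KI, and the medians lay closer together than the means. Cpsf2, a subunit of the cleavage complex, gave 0.33 ± 0.15 (adjusted p = 0.391, limma). Slbp, which binds the stem-loop, gave -0.09 ± 0.16, and Npat, the activator of histone gene clusters, gave -0.24 ± 0.13. The median of the list was -0.09.

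Of 24 detected histone chaperones, 2 (8.33%) were lower and 0 higher at an unadjusted p under 0.05, a share near the 7.01% of all tested probes. Asf1a, which hands new H3 and H4 to the assembly factors, gave -0.89 ± 0.32 (adjusted p = 0.358, limma), with overlapping levels of -0.98 to 0.76 in KI and 0.10 to 1.40 in control. Nap1l4, a carrier of H2A and H2B, gave -0.29 ± 0.13 (adjusted p = 0.391, limma). Asf1a and Rbbp4, which binds H4, are also on the list of the study drawn from these animals. The probes of Rbbp4 disagreed, with -0.12 ± 0.18 at the brightest and 0.89 to 1.17 at the other 3. Those 3 had unadjusted p of 0.00146 to 0.00998 and adjusted p of 0.342 to 0.353 (limma). A dimmer probe of Atrx gave 0.40 ± 0.18 (unadjusted p = 0.0404, adjusted p = 0.387, limma). This Atrx probe was detected in 6 KI and 3 control animals. It passed the detection rule through the group where it was higher, so its p is no support. The count of 0 higher takes the brightest probe per gene and leaves these Rbbp4 and Atrx probes out. The median of the list was -0.12.

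Of 34 detected genes of S phase and proliferation, 2 (5.88%) were higher and 0 lower at an unadjusted p under 0.05, a share near the 5.71% of all tested probes. Mcm6, of the replicative helicase, gave 0.93 ± 0.40 and Tpx2, of the mitotic spindle, gave 0.73 ± 0.28 (adjusted p = 0.385 and 0.364, limma). Mki67 gave -0.36 ± 0.37 and Pcna -0.09 ± 0.17. The median of the list was -0.13, and its mean deviation per animal ran from -0.53 to 0.73 in KI and from -0.60 to 0.62 in control.

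The 10 histone genes with more than 1 tested probe show how far a single probe speaks for its gene. In 6 genes all probes had the same sign, and in 4 (H2afv, H2afy, H2afz and H3f3b) they did not. The probes of Hist3h3, Hist2h4, H2afj, Hist1h4b and Hist1h2bl lay within 0.08 of each other. Those of Hist3h2ba lay 0.79 apart, those of H2afv 0.754 and those of H2afy 1.08. Of the 12 probes that were not compared, 6 were detected on no array, among them both probes of Hist1h2ba and the probe of Hist1h2aa, testis forms of H2B and H2A.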

How the data were processed

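RNA from 13 thyroids was labelled with Cy3 by the Low Input Quick Amp protocol. Per the file headers, the authors deposited 1 scanner file per array from Agilent Feature Extraction (version 10.7.3.1), which gives spot intensity already corrected for background and not scaled between arrays. A table of log2 values from the same arrays was deposited too, whose normalization is not given in the sources used here, and these served as an alternative. Low intensities depend most on the background subtraction.

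From the intensities, log2 of the processed signal was averaged over the spots of a probe, without control spots and outlier-flagged spots, and the 75th percentile of each array was subtracted. A probe counted as detected on an array where at least 0.5 of its spots were well above background. The 25717 probes detected on at least 6 arrays were fitted with limma (version 3.58.1, R 4.3.3; lmFit and eBayes, group as the only term, all 13 arrays) with Benjamini-Hochberg adjustment at 0.05. For 67 tested probes at least 1 array gave no value. For single probes the difference in means was also tested by exact two-sided permutation. Groups and replicate numbers came from the sample titles. The file headers give 6 slides and 3 scan dates, and arrays with the same scan date are called a scan session here. Each slide and scan date held both groups except 1 slide.

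Classes went by symbol. The members, the lists of genes and the tests were chosen with earlier results of these data known. Named are the Hist3h2ba probes, each histone probe with an unadjusted p under 0.05, each detected variant probe, the brightest probe and the one with the largest difference in each replication-dependent family, and the list members with the lowest p. Others, among them Slbp, Npat, Mki67, Pcna and the germ cell genes, were added for their roles. Probe sequences came from the scanner files and promoters from RefSeq (GRCr8). Python 3.11.15 with numpy 2.4.6 and pandas 2.3.3 was used, and the fit was tested on simulated data. Alternatives were normexp background correction (offset 50), quantile normalization, the deposited log2 values, median centring, no filter, a filter on all 13 arrays, slide, scan session or replicate number as a block, the methods' t-test, array weights and leaving out each array. The 75th percentile over spots, and leaving out control 4 and control 6 together, were added after seeing the data.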

Additional observations from a re-analysis of the deposited data

Results flagged for a closer look

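Among the 28 histone probes named by the rule, 56 groups were searched for an animal far from the others, and 3 were found, about the 1 in 20 that chance gives. At the Hist1h2bl probe (A_44_P1080474), control 1 was at 2.48 and the next control animal at 2.95, a gap of 0.640 of the range of the group. At the dim Hist1h4b probe (A_64_P112014), control 4 was at -2.89 and the next control animal at -1.93, a gap of 0.618 of the range. At the H2afv probe detected on 8 arrays (A_44_P1112941), KI 5 was at -1.81 and the next KI animal at -3.26, a gap of 0.633 of the range.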

How the results depend on the processing

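The lowest adjusted p among the tested histone probes (43, or 40 with detection on all 13 arrays) ran from 0.0654 with array weights to 0.539 over the alternatives, and over all tested probes the count of 0 became 50 with array weights and ran from 0 to 1 when each animal was left out, with 1 without control 1 and 1 without control 2. Histone probes with an unadjusted p under 0.05 and a lower level in KI numbered 3 as reported, beside 1802 of all 25717 tested probes. The count was 1 in the deposited log2 values (1359 of all) and 1 with the 75th percentile taken over spots (1109). With slide as a block it was 5 (2159), with scan session as a block 5 (2807) and with array weights 6 (2660). Leaving out each animal gave 3 to 12, the highest without control 1 (2511). It was 6 without KI 4 (1499), 5 without KI 1 (1253) and 5 without control 5 (1836). The count of higher histone probes was 0 as reported, beside 1469 of all tested probes. It was 1 in the deposited log2 values (1886 of all), with median centring (1459) and with the percentile over spots (1789). With detection on all 13 arrays it was 1 (1232 of 20754). It was also 1 with slide (1825), scan session (2313) or replicate number (1063) as a block. Leaving out each animal gave 0 to 1. The median difference of the variant probes, -0.11, was 0.017 in the deposited log2 values, and that of the replication-dependent probes ran from -0.26 to -0.10. The 3′ probe of Hist3h2ba ran from -0.99 to -0.70, with adjusted p from 0.0654 to 0.539 in limma, and from -1.04 to -0.84 when each animal was left out. Some probes changed sign. With normexp background correction H2afy2 was -0.036, against 0.51, and H2afz (A_44_P1159570) 0.031. With quantile normalization H2afz (A_44_P1159570) was 0.080 and H2afy (A_42_P783292) 0.0025. In the deposited log2 values these were 0.11 and 0.028, H2afz (A_44_P1083522) 0.0065 and H3f3b (A_44_P1086754) 0.017. H2afz (A_44_P1159570) was also 0.0061 with median centring, 0.071 with the percentile over spots and 0.0019 with scan session as a block. Hist1h1d was -0.15 with slide, -0.13 with scan session and -0.042 with replicate number as a block. With array weights H2afv (A_64_P085410) was 0.034, H2afz 0.075 (A_44_P1159570) and 0.0013 (A_44_P1083522), and H3f3b (A_44_P1366953) -0.12. Without control 4 and control 6 H2afy (A_42_P783292) was 0.048, H2afz 0.078 (A_44_P1159570) and 0.047 (A_44_P1083522), and H3f3b (A_44_P1366953) -0.026. Leaving out each animal gave -0.14 to 0.16 for Hist1h1d, -0.19 to 0.022 for H2afv (A_64_P085410), -0.084 to 0.059 for H2afz (A_44_P1159570) and -0.040 to 0.083 for H3f3b (A_44_P1366953). The causes were not tested. The percentile over spots and the setting without control 4 and control 6 were chosen after seeing the data. The median of all tested probes was -0.10 with normexp and -0.17 with no detection filter. Samples of the same replicate number did not deviate together (r from -0.109 to 0.071 over 6 pairs), so they share a number only, and with it as a block 2 histone probes were lower and 1 higher at an unadjusted p under 0.05, with 2356 of all tested probes past it. Probes near background, such as those of H2afy2 and H2afy (A_44_P1114033), carry the least certain values.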
